A study of Mus musculus with 12 samples.

Results

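The genes of the creatine kinase system were followed in 12 RNA-seq libraries of mouse heart. These were 4 creatine kinase genes (Ckb, Ckm, Ckmt2 and Ckmt1), the creatine transporter Slc6a8 and the creatine synthesis genes Gatm and Gamt, so 7 genes of 49315 in the count tables. They were chosen by name, by matching the Ensembl identifiers to mouse symbols, and all 7 were found in every library. After the filter on low counts, 6 of the 7 were tested, since Ckmt1 was almost without counts. The hearts came from wild-type female C57BL/6J mice (strain entered as C57BL/6), with 3 libraries in each of 4 groups. The groups were mice fed a Western diet (45% of energy as fat, 17% as sucrose) and killed on day 1 after delivery, mice fed a control diet (10% of energy as fat) and killed on day 1 after delivery, and nonpregnant mice fed the Western diet or the control diet. Feeding had lasted 15 weeks when breeding began, bred and unbred mice stayed on their diet, and all mice were 27 to 29 weeks old at collection. The series set out to ask how a diet-induced metabolic syndrome bears on remodelling of the heart in pregnancy. The tissue was trimmed heart, with no chamber named.

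Creatine kinases move a phosphate group between ATP and creatine, so that phosphocreatine serves as a rapidly used energy store in muscle and brain. In the heart, the mitochondrial form makes phosphocreatine beside the sites of ATP export, and cytosolic dimers at the contractile filaments and ion pumps turn it back into ATP. Heart muscle makes little creatine of its own and takes it from the blood through a sodium-coupled transporter. Synthesis takes 2 enzymes, arginine:glycine amidinotransferase (Gatm) and guanidinoacetate N-methyltransferase (Gamt), which in mammals are most active in kidney, pancreas and liver.

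The promoters of the 3 creatine kinase genes with appreciable levels are shown for their letters, and no link between these and the change in Ckb was tested. They are RefSeq sequences on GRCm38.p6, found for 6 of the 7 genes and not for Slc6a8, and each reads 5′ to 3′ on the strand of its gene towards the start of transcription. Ckb lies at chr12:111669355-111672338 on the minus strand, and its promoter at chr12:111672339-111672588. Ckm lies at chr7:19404776-19422841 on the plus strand, with the promoter stretch at chr7:19410844-19411024 printed up to the base before its earliest protein-coding transcript. Ckmt2 lies at chr13:91853387-91876885 on the minus strand, and its promoter at chr13:91876886-91877135. Capitals mark matches, on either strand, to the TATA box TATAAA, to CCAAT, to the MEF2 site (CTA and TAG with any 4 bases between) and to TCAAGGTCA of the oestrogen-related receptors.
Ckb: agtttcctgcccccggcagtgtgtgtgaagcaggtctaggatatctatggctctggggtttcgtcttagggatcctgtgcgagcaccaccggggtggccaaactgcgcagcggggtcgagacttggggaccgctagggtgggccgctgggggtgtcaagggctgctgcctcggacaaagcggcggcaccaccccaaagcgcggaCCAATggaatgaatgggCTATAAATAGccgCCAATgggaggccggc
Ckm: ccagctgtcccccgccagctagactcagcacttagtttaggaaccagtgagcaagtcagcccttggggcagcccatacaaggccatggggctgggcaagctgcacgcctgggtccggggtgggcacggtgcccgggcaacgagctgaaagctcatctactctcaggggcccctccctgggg
Ckmt2: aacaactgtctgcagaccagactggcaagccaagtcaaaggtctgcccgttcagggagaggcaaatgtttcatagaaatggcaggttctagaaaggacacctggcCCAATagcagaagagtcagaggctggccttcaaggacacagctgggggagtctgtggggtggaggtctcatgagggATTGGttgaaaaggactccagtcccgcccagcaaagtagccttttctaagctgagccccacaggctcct
In Ckb the TATAAA match lay 28 to 23 bases before the start, inside a match to the MEF2 site at bases 29 to 20, and CCAAT matches lay at bases 46 to 42 and 16 to 12. Ckm had no exact match to these 4 patterns in its 250 bases, of which the first 181 are printed. Variants of the letters were not searched for. Ckm held 1 match to CANNTG (E box), while Ckmt2 had 4 E box matches and 1 match to GGGCGG (GC box). Ckmt2 also had CCAAT matches at bases 145 to 141 and, on the opposite strand, 69 to 65. Over 32841 mouse promoters of 250 bases, searched on both strands, TATAAA was present in 12.4%, CCAAT in 33.9%, GGGCGG in 32.7%, CANNTG in 66.2%, the MEF2 site in 3.2% and TCAAGGTCA in 0.387%. These matches describe the letters in the window and were not tested for binding.

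The libraries held 22754591 to 29492416 counts, and mitochondrially encoded genes took 19.2% to 21.5% of them. After delivery that share was 20.5% to 21.5% on the Western and 19.2% to 19.4% on the control diet, without overlap. In nonpregnant hearts it was 20.4% to 21.2% on the Western and 19.8% to 20.2% on the control diet, also without overlap. Levels are given as CPM, counts scaled to library size. A count of 0 allowed a level of 0.102 to 0.132 CPM (3 counts), which covers counting error only. The defining cardiomyocyte genes were high in every library, with Myh6, the adult myosin heavy chain, at 33119 ± 2239 CPM (SD, n = 12). Genes of fat tissue were seen in control diet postpartum replicate 3: Ucp1, which uncouples respiration in brown fat, was at 73.1 CPM there and at no more than 0.545 CPM in the other 11 libraries. Control diet nonpregnant replicate 1 also stood apart. Its counts over genes gave a chi-square of 16.7 and 16.3 per degree of freedom against replicates 2 and 3, which gave 4.02 against each other. Western diet postpartum replicate 2 gave 14.1 and 12.9 against replicates 1 and 3, which gave 7.03 against each other. Titles number the postpartum libraries before the nonpregnant ones, so pregnancy and order cannot be told apart. The labels do not say that libraries of a group came from separate animals, so p-values measure the spread between these libraries, which may be technical.

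Per length of gene, the sarcomeric mitochondrial kinase Ckmt2 and the muscle kinase Ckm were far above the other genes. On the RPKM scale, which is CPM per kilobase of gene length, Ckmt2 stood at 1487 ± 154 and Ckm at 799 ± 51.8 (SD, n = 12 libraries). Slc6a8 stood at 44.5 ± 5.28 RPKM and brain-type Ckb at 32.6 ± 5.91 RPKM. The synthesis genes were low, Gamt at 2.56 ± 0.123 and Gatm at 0.861 ± 0.281 RPKM, and the ubiquitous mitochondrial kinase Ckmt1 was at 0.0668 ± 0.0455 RPKM. This order held in 3 groups with no overlap between neighbouring genes. The exception was control diet postpartum hearts, where Ckb (39.8 ± 4.43 RPKM, n = 3) and Slc6a8 (39.6 ± 6.05 RPKM, n = 3) overlapped. In Western diet postpartum hearts Slc6a8 (49.6 ± 5.27 RPKM) lay 1.95 times above Ckb (25.5 ± 1.29 RPKM). Slc6a8 has 5210 bases in the count tables and 2911.5 in its principal transcripts, against 1478 and 1472 for Ckb. The overlap of these genes and the ratio between them therefore depend on the length used.

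**Figure D1:**
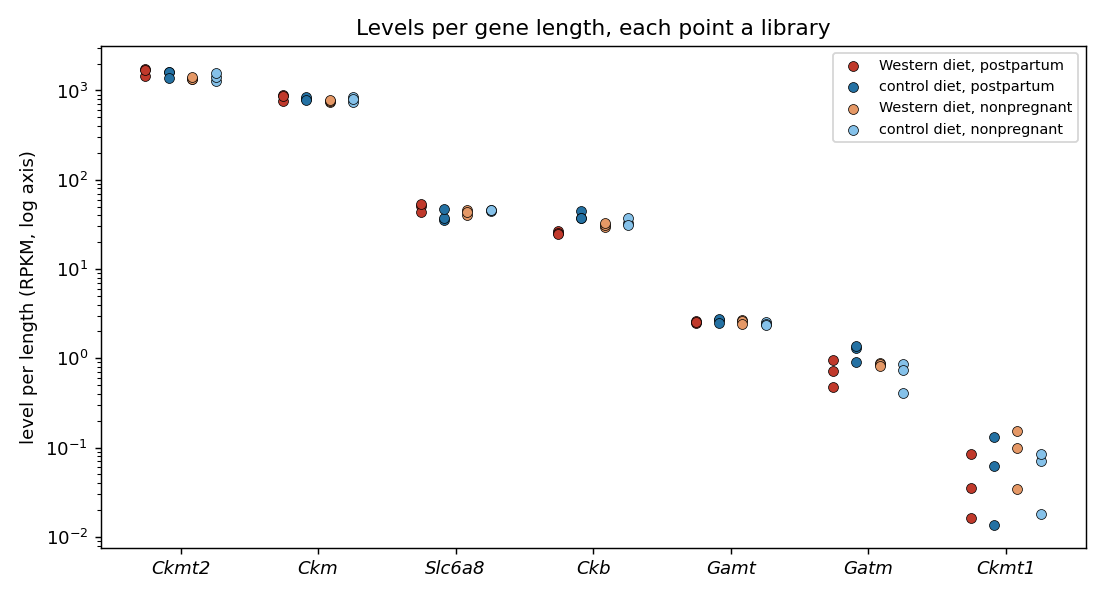
Level of each gene per length (RPKM, log axis), each point 1 library, coloured by group. Ckmt2 and Ckm lie above Slc6a8 and Ckb in every library, Gamt and Gatm lie lower, and Ckmt1 is lowest.

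Among the 4 kinases, Ckmt2 made up 64.1 ± 1.37%, Ckm 34.5 ± 1.23%, Ckb 1.42 ± 0.277% and Ckmt1 0.00297 ± 0.00213% of their summed RPKM (SD, n = 12). The Ckb share was 1.02 ± 0.0854% in Western diet postpartum and 1.67 ± 0.168% in control diet postpartum hearts (SD, n = 3 each). In nonpregnant hearts it was 1.45 ± 0.0561% on the Western and 1.51 ± 0.189% on the control diet. These shares rest on the gene lengths in the count tables. Without length, Ckm made up 50.8% and Ckmt2 48.1% of the summed CPM of the kinases, so their order depends on the length used.

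Each comparison was read from 1 edgeR quasi-likelihood fit over 15476 genes, with Benjamini-Hochberg adjusted p under 0.05 taken as a change. Ckb fell in Western against control diet hearts after delivery, the 1 of 6 tested genes of the system that changed, where 0.879% of all genes changed in either direction and 0.233% fell. None of the 6 changed between the diets in nonpregnant hearts, where 0.0582% of all genes did. None changed after delivery on the Western diet (0.588% of all genes) or on the control diet (0.239% of all genes). Between Western diet postpartum and control diet nonpregnant hearts 1 of 6 fell, again Ckb, with 2.62% of all genes changed and 1.18% lower. Averaged over pregnancy states, 1 of 6 fell on the Western diet, with 1.38% of all genes changed and 0.394% lower. Averaged over diets, none of 6 changed after delivery (1.78% of all genes). These comparisons share groups, so their values for Ckb are not independent of each other.

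**Figure D2:**
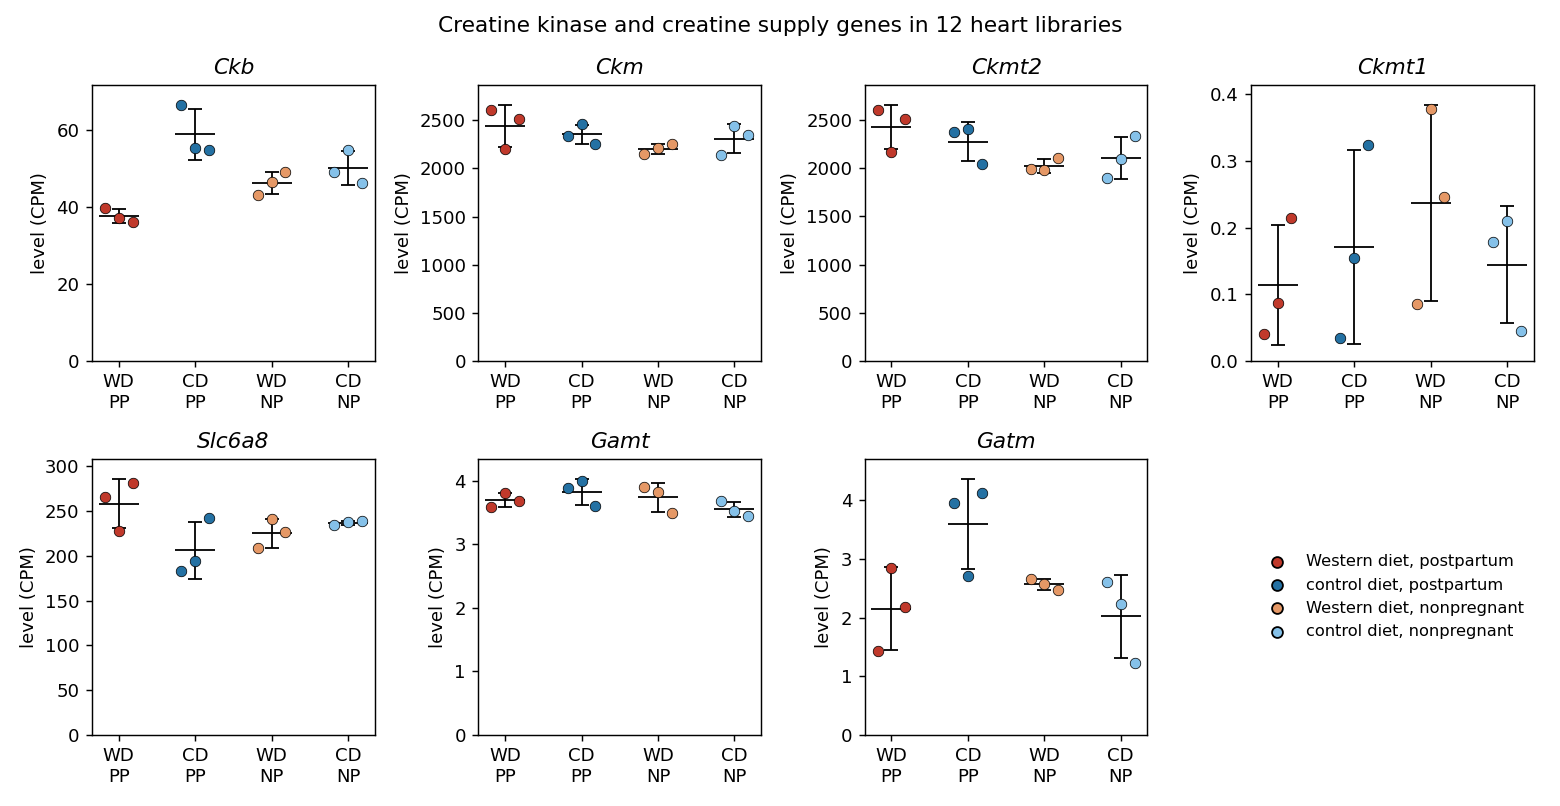
Level (CPM) of each gene by group, with points for libraries and bars for mean ± SD (n = 3). WD is Western diet, CD control diet, PP postpartum day 1 and NP nonpregnant. The 3 Western diet postpartum libraries have the lowest Ckb levels, 36.1 to 39.8 CPM, below the 54.7 to 66.3 CPM of the control diet postpartum libraries.

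Ckb encodes the brain-type subunit, which in adult heart is the minor cytosolic form and pairs with itself or with the muscle subunit. It stood at 39.8, 37.0 and 36.1 CPM in Western diet postpartum hearts, against 66.3, 55.3 and 54.7 CPM in control diet postpartum hearts. Nonpregnant hearts had 43.2, 46.4 and 49.0 CPM on the Western diet, against 49.0, 54.8 and 46.1 CPM on the control diet. The postpartum diet groups did not overlap (19.1% of all genes did not) and lay on opposite sides of all 3 Western diet nonpregnant libraries, while the nonpregnant diet groups overlapped.

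After delivery, Ckb fell on the Western diet to 37.7 ± 1.90 CPM, against 58.8 ± 6.55 CPM on the control diet (SD, n = 3 each). The log2 fold change was -0.64 (SE 0.087, 95% interval -0.83 to -0.45, edgeR adjusted p = 0.00527), a level of 0.641 times that of control diet hearts. By p it ranked 12 among the 15476 genes. Without replicate 3 of the control diet postpartum group and replicate 1 of the control diet nonpregnant one, the log2 fold change was -0.70 (edgeR adjusted p = 0.0112), and without Western diet postpartum replicate 2 it was -0.64 (edgeR adjusted p = 0.00563). In bulk tissue, fewer cells that express a gene and less RNA per cell cannot be told apart. In nonpregnant hearts Ckb averaged 46.2 ± 2.91 CPM on the Western and 50.0 ± 4.45 CPM on the control diet, a log2 fold change of -0.11 (SE 0.087, 95% interval -0.30 to 0.073, edgeR adjusted p = 0.728).

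The difference between these diet effects, the interaction, was -0.53 for Ckb on the log2 scale (SE 0.12, unadjusted p = 0.000784) and did not pass edgeR's adjustment over all genes (adjusted p = 0.357). No gene of the 15476 passed that test (0% called), 1390 (8.98%) had an unadjusted p under 0.05, and Ckb ranked 30. DESeq2 on the same counts passed 43 genes, Ckb among them (log2 difference -0.53, DESeq2 adjusted p = 0.0307), and edgeR without the filter on low counts also passed Ckb (-0.55, edgeR adjusted p = 0.00042). Of 20 alternatives to the main fit, Ckb passed in these 2 and did not pass in the other 18. Its interaction call thus depended on the tool and on the filter, and most settings gave none.

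The pregnancy effect on Ckb had opposite fitted directions on the diets and passed on neither. Postpartum against nonpregnant, the log2 fold change was -0.29 on the Western diet (SE 0.088, 95% interval -0.48 to -0.11, edgeR adjusted p = 0.146), with no overlap between groups. On the control diet it was 0.23 (SE 0.086, 95% interval 0.048 to 0.42, edgeR adjusted p = 0.288), with the lowest postpartum library (54.7 CPM) just below the highest nonpregnant one (54.8 CPM). The average over diets was -0.03 (SE 0.062, edgeR adjusted p = 0.839). No overlap between groups was found for 19.6% of all genes on the Western and 17.1% on the control diet.

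Western diet postpartum against control diet nonpregnant hearts, Ckb had a log2 fold change of -0.41 (SE 0.088, edgeR adjusted p = 0.0291). That call was lost without Western diet postpartum replicate 1 (-0.45, edgeR adjusted p = 0.0685) or replicate 3 (-0.38, edgeR adjusted p = 0.107), without control diet nonpregnant replicate 2 (-0.34, edgeR adjusted p = 0.122), and in a fit of only these groups (-0.41, edgeR adjusted p = 0.0528). Averaged over pregnancy states, the Western diet had a log2 fold change of -0.38 for Ckb (SE 0.062, edgeR adjusted p = 0.00894), and without the pair of libraries named above -0.41 (edgeR adjusted p = 0.0186). Without that pair the Western diet postpartum against control diet nonpregnant value was -0.42 (edgeR adjusted p = 0.0411).

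**Figure D3:**
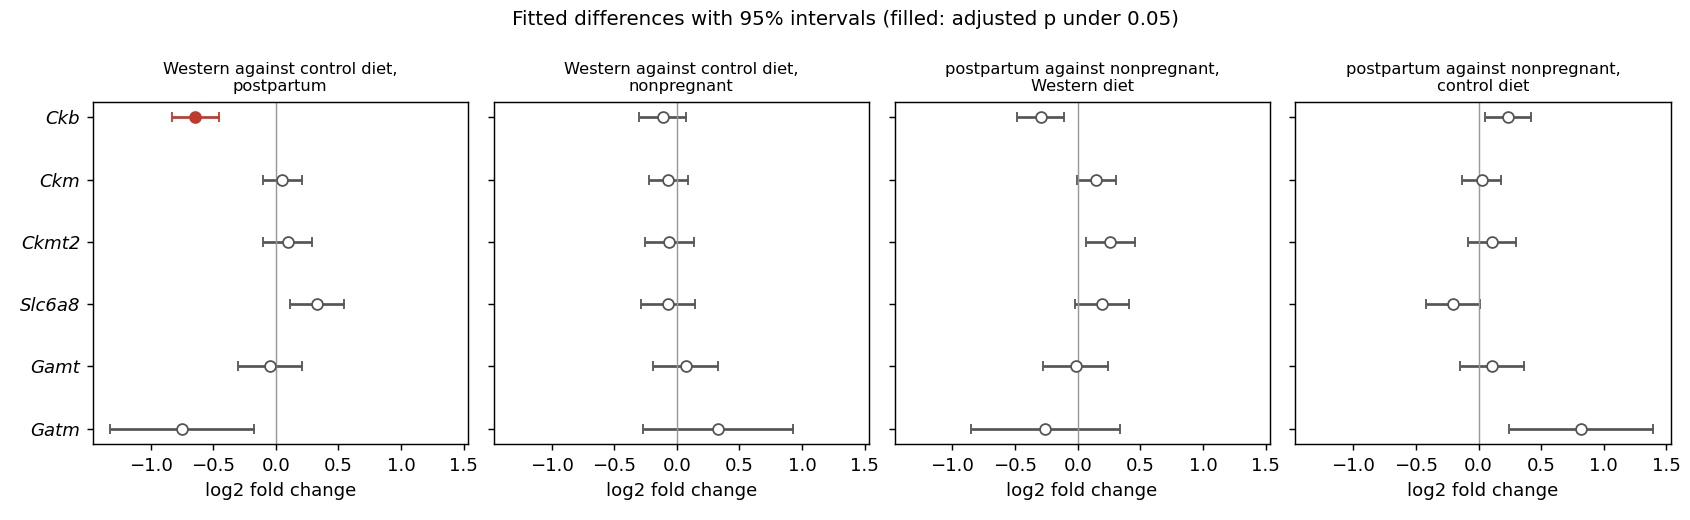
Fitted log2 fold changes of the 6 tested genes with 95% intervals in 4 comparisons, filled where the edgeR adjusted p is under 0.05. Ckb in Western against control diet hearts after delivery, at -0.64, is the filled point.

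Ckm encodes the muscle-type subunit, the main cytosolic kinase of heart and skeletal muscle. It stood at 2609, 2197 and 2514 CPM in Western diet postpartum hearts, against 2342, 2458 and 2258 CPM in control diet postpartum hearts. The nonpregnant hearts had 2151, 2209 and 2250 CPM on the Western diet, against 2144, 2437 and 2352 CPM on the control diet. The diet groups overlapped in both states. Western against control diet, its log2 fold change was 0.05 after delivery (SE 0.073, 95% interval -0.10 to 0.21, edgeR adjusted p = 0.808) and -0.07 in nonpregnant hearts (SE 0.073, edgeR adjusted p = 0.825). The interval after delivery does not reach the -0.64 of Ckb, though the difference between these genes was not tested. Per 1000 CPM of Ckm, Ckb stood at 15.2, 16.9 and 14.4 CPM in Western diet postpartum hearts, against 28.3, 22.5 and 24.2 CPM in control diet postpartum hearts. In nonpregnant hearts that ratio averaged 20.9 ± 0.85 on the Western and 21.7 ± 1.78 on the control diet (SD, n = 3 each).

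Ckmt2 encodes the mitochondrial kinase of striated muscle, which sits between the mitochondrial membranes beside the adenine nucleotide carrier. It stood at 2603, 2174 and 2507 CPM in Western diet postpartum hearts, against 1988, 1980 and 2110 CPM in Western diet nonpregnant hearts. Control diet hearts had 2378, 2403 and 2040 CPM after delivery, against 1901, 2092 and 2336 CPM in nonpregnant mice. Every Western diet postpartum library was above every nonpregnant library on that diet, whereas the control diet groups overlapped. Between these Western diet groups, 19.6% of all genes had no overlap. Its log2 fold change after delivery was 0.26 on the Western diet (SE 0.090, 95% interval 0.067 to 0.46, edgeR adjusted p = 0.198) and 0.11 on the control diet (SE 0.090, edgeR adjusted p = 0.675), so neither passed. Averaged over diets it was 0.18 (SE 0.064, edgeR adjusted p = 0.153). For Ckm the same averaged change was 0.09 (SE 0.051, edgeR adjusted p = 0.407). Between the diets, Ckmt2 differed by 0.09 on the log2 scale after delivery (SE 0.090, edgeR adjusted p = 0.694) and by -0.06 in nonpregnant hearts (SE 0.090, edgeR adjusted p = 0.896).

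Levels of Ckm and Ckmt2 followed each other across libraries. The ratio of Ckmt2 to Ckm CPM lay between 0.858 and 1.02 in all 12 libraries. Their log2 CPM had a Pearson r of 0.868 (permutation p = 0.00039, adjusted over 15 gene pairs 0.00585) and a Spearman rho of 0.839 (permutation p = 0.00107, adjusted 0.016; n = 12, two-sided, 100000 permutations). Without the 2 libraries farthest from the median of Ckm, r was 0.74, and with each group's mean removed it was 0.82. Libraries share scaling and tissue makeup, and what these contributed to the correlation was not tested. No other of the 15 pairs passed. With each group's mean removed, r was -0.843 for Ckmt2 and Gatm and -0.707 for Ckm and Gatm. No test was run on the values with group means removed. Ckb and Slc6a8 had r = -0.677 (permutation p = 0.0157, adjusted 0.118), and r was -0.281 without the 2 libraries farthest from the median of Ckb, so that relation rested on those libraries.

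**Figure D4:**
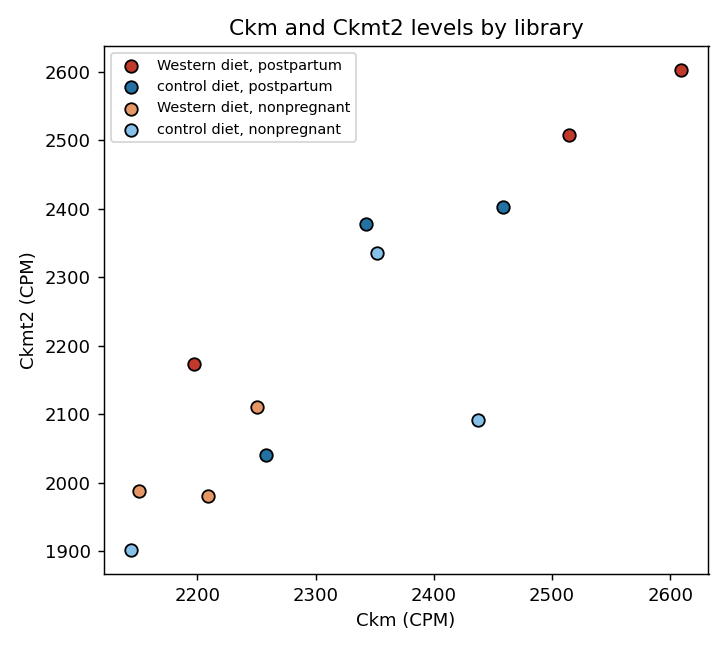
Ckmt2 level (CPM) against Ckm level (CPM), each point 1 of 12 libraries, coloured by group; neither axis starts at 0. The points run along a rising line (r = 0.868), with Western diet postpartum replicates 1 and 3 highest for both.

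Ckmt1, the mitochondrial kinase of brain and epithelia, had 1, 2 and 5 counts in Western diet postpartum hearts, against 1, 4 and 10 in control diet postpartum hearts. Nonpregnant hearts had 2, 10 and 7 counts on the Western diet, against 5, 5 and 1 on the control diet. The groups overlapped, and no difference was detectable at this depth.

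Slc6a8, the transporter that brings creatine into the cell, was the supply gene with the highest level. It stood at 266, 228 and 281 CPM in Western diet postpartum hearts, against 183, 194 and 242 CPM in control diet postpartum hearts. In nonpregnant hearts it was at 209, 241 and 226 CPM on the Western diet, against 235, 238 and 239 CPM on the control diet. After delivery the lowest Western diet library, replicate 2, lay below the highest control diet library, replicate 3. The log2 fold change between the diets after delivery was 0.33 (SE 0.10, 95% interval 0.11 to 0.54, unadjusted p = 0.00596) and did not pass edgeR's adjustment (adjusted p = 0.141). It passed without control diet postpartum replicate 3, the library with fat tissue genes (0.45, edgeR adjusted p = 0.0446), and without Western diet postpartum replicate 2, which also stood apart (0.40, edgeR adjusted p = 0.0481). Without control diet postpartum replicate 1 it was 0.24 (edgeR adjusted p = 0.391), so the value rested on which library was kept.

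In nonpregnant hearts the diets differed by -0.07 in Slc6a8 on the log2 scale (SE 0.10, edgeR adjusted p = 0.875). Postpartum against nonpregnant, its log2 fold change was 0.20 on the Western diet (SE 0.10, edgeR adjusted p = 0.389) and -0.20 on the control diet (SE 0.10, edgeR adjusted p = 0.436). The interaction was 0.40 (SE 0.14, edgeR adjusted p = 0.464), opposite in sign to that of Ckb. Western diet postpartum against control diet nonpregnant hearts, Slc6a8 differed by 0.12 (SE 0.10, edgeR adjusted p = 0.555).

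**Figure D5:**
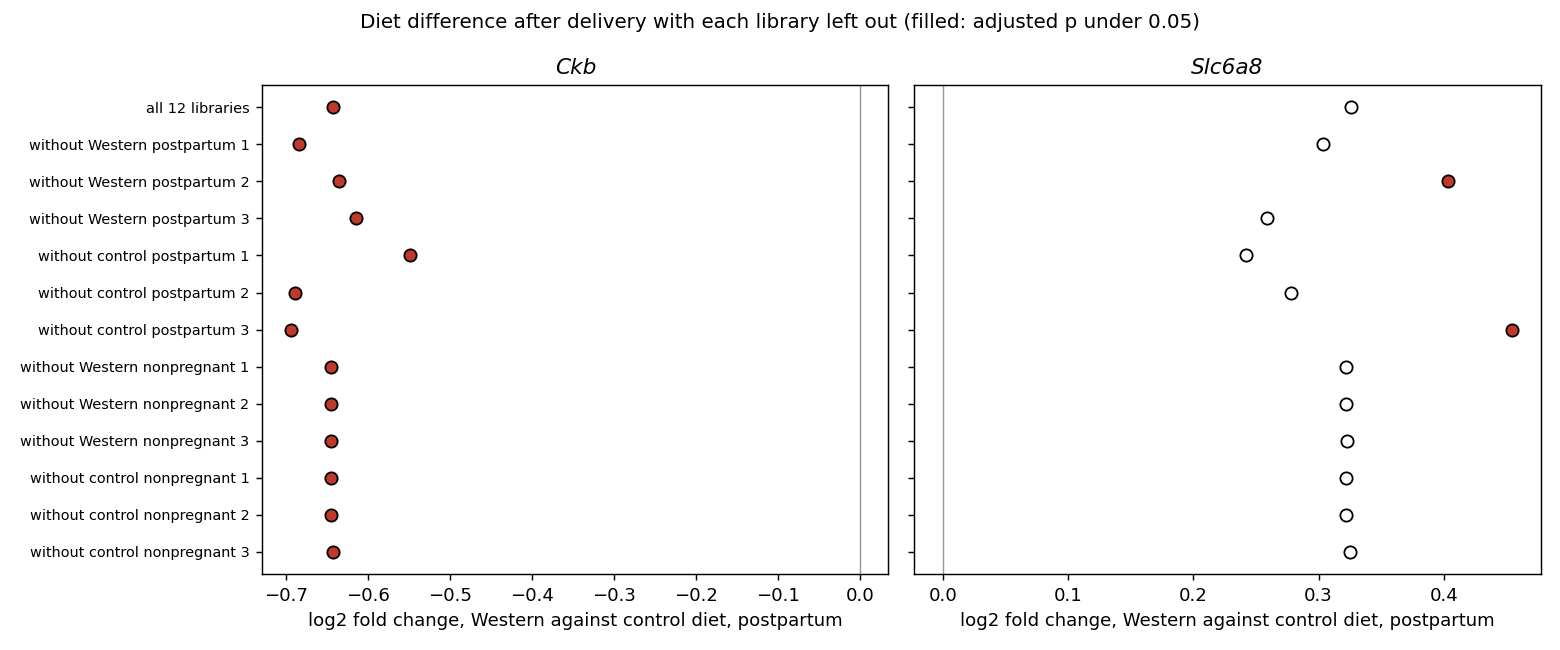
Fitted log2 fold change between Western and control diet hearts after delivery for Ckb and Slc6a8, with each library left out in turn, filled where the edgeR adjusted p is under 0.05. Ckb stays between -0.69 and -0.55 and filled throughout, while Slc6a8 lies between 0.24 and 0.45 and is filled in 2 of the 12 fits, without Western diet postpartum replicate 2 and without control diet postpartum replicate 3.

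Gatm, which makes guanidinoacetate in the committed step of creatine synthesis, had the widest spread among the 6 tested genes, with a coefficient of variation of 32.6% over the 12 libraries and 27 to 127 counts a library. It stood at 1.43, 2.85 and 2.18 CPM in Western diet postpartum hearts, against 3.95, 2.71 and 4.12 CPM in control diet postpartum hearts. Nonpregnant hearts had 2.66, 2.58 and 2.46 CPM on the Western diet, against 2.61, 2.23 and 1.23 CPM on the control diet. Control diet postpartum libraries lay above the control diet nonpregnant ones without overlap, by a narrow gap of 2.71 against 2.61 CPM. Between these control diet groups, 17.1% of all genes had no overlap. The log2 fold change after delivery on the control diet was 0.82 (SE 0.27, 95% interval 0.24 to 1.40, unadjusted p = 0.00879, edgeR adjusted p = 0.234). Western against control diet after delivery, it was -0.75 (SE 0.27, 95% interval -1.33 to -0.17, edgeR adjusted p = 0.205), with overlap. On the Western diet the change after delivery was -0.26 (SE 0.28, edgeR adjusted p = 0.716), and between the diets in nonpregnant hearts 0.33 (SE 0.28, edgeR adjusted p = 0.758). The interaction was -1.08 (SE 0.39, edgeR adjusted p = 0.464), so none of these Gatm differences passed.

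Gamt, the methyltransferase that completes creatine, stood between 3.45 and 3.99 CPM in all 12 libraries (76 to 114 counts). None of its fitted changes passed. Western against control diet, they were -0.05 after delivery (SE 0.12, 95% interval -0.31 to 0.21, edgeR adjusted p = 0.908) and 0.07 in nonpregnant hearts (SE 0.12, edgeR adjusted p = 0.915). Postpartum against nonpregnant, they were -0.02 on the Western diet (SE 0.12, edgeR adjusted p = 0.976) and 0.10 on the control diet (SE 0.12, edgeR adjusted p = 0.785).

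Over the 6 tested genes the median log2 fold change between the diets was 0.002 after delivery and -0.06 in nonpregnant hearts, beside -0.0006 over all genes in either state. After delivery it was 0.07 on the Western diet and 0.11 on the control diet, beside -0.003 and -0.007 over all genes.

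By Pearson correlation of log2 CPM over the 12 libraries, among 9858 genes of at least 5 CPM, the genes with a pattern most like that of Ckb were Phf24 (r = 0.896), Srpk3 (0.895), Psmd14 (0.871), Hspb3 (0.867) and Zcchc17 (0.851). Phf24 encodes a PHD finger protein, Srpk3 a kinase of splicing factors found in striated muscle, Psmd14 a deubiquitinating subunit of the proteasome and Hspb3 a small heat shock protein of muscle. Phf24 stood at 4.41, 3.98 and 4.20 CPM in Western diet postpartum hearts, against 8.10, 6.67 and 6.14 CPM in control diet postpartum hearts. It fell with the Western diet after delivery (log2 fold change -0.73, edgeR adjusted p = 0.0165), while Srpk3 had -0.36 (edgeR adjusted p = 0.0541). Psmd14 had -0.24 (edgeR adjusted p = 0.128) and Hspb3 -0.63 (edgeR adjusted p = 0.094). Zcchc17 had -0.20 (edgeR adjusted p = 0.184), so only Phf24 of these 5 passed. These points share their libraries and scaling. The genes were also picked for following Ckb in those libraries, so their diet differences are not independent of that of Ckb. Without the pair of control diet libraries left out for Ckb above, Phf24 was still the most alike (r = 0.927), followed by Mrpl22, Hsd17b12, Gtf3c6 and Nsun4, so 1 of the 5 names was shared.

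Genes that work beside the creatine kinase system were read from the same fit. None passed in any of the 8 comparisons among 10 tested genes of methyl supply for creatine synthesis, of 12 listed (highest level Mat2a, which makes S-adenosylmethionine, 154 CPM). The same held for 5 of 7 listed osmolyte and other creatine transporters (highest Slc6a6, the taurine transporter, 145 CPM), and for 9 of 14 adenylate kinases and AMP deaminases (highest Ak1, which regenerates ATP from ADP, 498 CPM). None passed among 10 of 11 genes of mitochondrial ATP export (highest Slc25a4, the adenine nucleotide carrier, 5159 CPM). Nor did any of the 9 AMPK subunits and upstream kinases (highest Stk11, 132 CPM) or of the 10 M-band genes, the site where muscle creatine kinase docks in the sarcomere (highest Ttn, the giant spring protein, 5008 CPM). Western against control diet after delivery, the medians of these 6 lists lay between -0.06 and 0.05 on the log2 scale, beside -0.0006 over all genes. Since between 0% and 2.62% of all genes were called in a comparison, lists of this size with no call lie near the background.

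Of 15 tested transcription factors tied to creatine kinase genes, of 16 listed, 1 passed in 1 comparison. Mef2a, a factor that binds the MEF2 site, fell in Western diet postpartum against control diet nonpregnant hearts (log2 fold change -0.32, SE 0.075, edgeR adjusted p = 0.0377), where 2.62% of all genes changed, so 1 of 15 is near the background. Between the diets after delivery Mef2a differed by -0.24 (edgeR adjusted p = 0.15). Esrra, the oestrogen-related receptor with the highest level on that list (187 CPM), differed there by 0.08 (edgeR adjusted p = 0.75). Among 8 tested fetal and hypertrophic genes, of 10 listed (highest Actc1, cardiac actin, 9460 CPM), none passed between the diets after delivery, where Ckb fell and 0.879% of all genes changed. Nppb, the B-type natriuretic peptide, stood at 130 to 622 CPM in Western diet postpartum hearts. Control diet nonpregnant hearts, at 72.1 to 147 CPM, overlapped with these. Nppb rose in Western diet postpartum against control diet nonpregnant hearts (log2 fold change 1.85, edgeR adjusted p = 0.0431) and averaged over diets after delivery (1.63, edgeR adjusted p = 0.0229). Myh7, the slow myosin heavy chain, fell in the same comparisons (-0.26, edgeR adjusted p = 0.0401, and -0.24, edgeR adjusted p = 0.0187), where 2.62% and 1.78% of all genes changed. It also fell after delivery on the control diet (-0.33, edgeR adjusted p = 0.0436; 0.239% of all genes changed). Averaged over pregnancy states, Nppa, the atrial natriuretic peptide, fell on the Western diet (log2 fold change -0.91, edgeR adjusted p = 0.00714; 1.38% of all genes changed).

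Markers of cell types that the tissue could hold were read beside Ckb in the postpartum hearts, Western against control diet. The 12 cardiomyocyte markers summed to 98742 to 100460 CPM on the Western and 96894 to 106362 CPM on the control diet, and none of them passed between the diets. The 14 Schwann and neural markers, of which 9 were tested and none passed, summed to 25.4 to 28.5 CPM on the Western and 31.6 to 32.2 CPM on the control diet, without overlap. Their median log2 fold change was -0.37. In nonpregnant hearts, the same sum was 28.8 to 35.1 CPM on the Western and 27.6 to 31.3 CPM on the control diet. What these cells contributed to the Ckb difference was not tested.

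Of the 8 atrial markers, 4 were tested and none passed between the diets after delivery. They summed to 78.1 to 91.9 CPM on the Western and 115 to 129 CPM on the control diet, without overlap, and in nonpregnant hearts to 58.7 to 84.6 CPM on the Western and 92.7 to 115 CPM on the control diet. The gap in that sum after delivery was that of Nppa (log2 fold change -0.85, edgeR adjusted p = 0.0629). Without Nppa the other 7 summed to 30.9 to 35.8 CPM on the Western and 29.97 to 33.4 CPM on the control diet after delivery, with overlap. Myl7, a defining atrial myosin light chain, was at 0 in at least 1 library of each diet after delivery. The part of atrial tissue in the Ckb difference was not tested.

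The 10 smooth muscle and pericyte markers summed to 3234 to 3624 CPM on the Western and 2964 to 3191 CPM on the control diet after delivery. Most of that sum was Des, the muscle filament protein desmin that heart muscle cells also hold (log2 fold change 0.26, edgeR adjusted p = 0.0802). Without Des the other 9 summed to 935 to 1070.4 CPM on the Western and 1005 to 1087 CPM on the control diet, with overlap, and the median log2 fold change of the 10 was 0.0017. The 1 marker that passed was Smtn, smoothelin of contractile smooth muscle, which fell. It averaged 149 ± 13.6 CPM on the Western and 206 ± 13.4 CPM on the control diet (SD, n = 3 each; log2 fold change -0.46, edgeR adjusted p = 0.00814). Endothelial markers summed to 1775 to 1916 CPM on the Western and 1496 to 1604 CPM on the control diet. Their median log2 fold change was 0.18, and none of 10 passed after delivery. Fabp4, also on the white adipocyte list, was the highest of the 10. Without it the other 9 summed to 1026.9 to 1183 CPM on the Western and 1003 to 1028.4 CPM on the control diet, with overlap. Averaged over pregnancy states, 4 of these 10 rose on the Western diet (1.38% of all genes changed), and 3 of 10 rose in Western diet postpartum against control diet nonpregnant hearts (2.62% of all genes changed), both comparisons in which Ckb fell. Pecam1, an adhesion molecule of endothelial cells, had log2 fold changes of 0.21 (edgeR adjusted p = 0.0221) and 0.34 (edgeR adjusted p = 0.0109) there.

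Fibroblast markers summed to 2316 to 2773 CPM on the Western and 2491 to 2585 CPM on the control diet, and macrophage markers to 359.6 to 419 CPM on the Western and 385 to 427 CPM on the control diet, with no gene of either list passing. Their median log2 fold changes were -0.26 and -0.14. The fibroblast list's highest gene was Gsn, the actin-severing gelsolin, and without it the other 9 summed to 961 to 1083 CPM on the Western and 1109.8 to 1347 CPM on the control diet, without overlap. Among these, the collagen gene Col3a1 stood at 161 ± 25.1 CPM on the Western and 294 ± 89.1 CPM on the control diet (SD, n = 3 each). Its log2 fold change was -0.87 (edgeR adjusted p = 0.112). The list was split in direction. Col1a1, Col1a2, Lum, Dpt and Postn also averaged lower on the Western diet, while Pdgfra, Dcn, Tcf21 and Gsn averaged higher. Skeletal muscle markers summed to 27.0 to 31.9 CPM on the Western and 25.6 to 30.6 CPM on the control diet. Most of that sum was Mybpc2. Without it the other 9 summed to 3.43 to 4.37 CPM on the Western and 4.05 to 4.51 CPM on the control diet, with overlap. The defining Myh2 was at 0 in all 3 Western diet libraries.

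Of 10 white adipocyte markers 8 were tested, and Lipe, the hormone-sensitive lipase that heart also expresses, rose on the Western diet after delivery (log2 fold change 0.71, SE 0.13, edgeR adjusted p = 0.0198). The list's median log2 fold change was -4.21, but its sum was higher on the Western diet, without overlap. That sum was 1068.4 to 1092 CPM on the Western and 778.9 to 1025.9 CPM on the control diet. Most of it was Fabp4, and without Fabp4 the sums of the other 9 overlapped. Control diet postpartum replicate 3 held 19.6 CPM of Adipoq and 12.2 CPM of Plin1, against at most 0.543 and 0.698 CPM in the other libraries. Such low genes, raised in that library, weighed on the median. None of 7 tested brown adipocyte markers passed, of 10 listed, with a median of 0.03. Without control diet postpartum replicate 3 the Ckb difference was -0.69. What the cells of these lists contributed to the Ckb difference was not tested.

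Counts of these genes could be shared with other annotated loci. The processed pseudogenes Ckb-ps1 and Ckb-ps2 had 0 counts in every library. The antisense genes A930016O22Rik, inside Ckm, and 1700119I11Rik, inside Ckmt2, had 2.32 to 8.22 and 3.47 to 5.29 CPM. The sources used here do not give the strand setting of the counting, so reads of such overlapping genes cannot be told apart, at levels far below those of Ckm and Ckmt2.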

How the data were processed

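Per the labels, RNA was extracted from heart with a Qiagen RNeasy kit and made into NEBNext Ultra libraries. The authors deposited raw counts of reads for each gene, with no normalization; the submitters' processing notes name FastQC, STAR 2.5.2b, featureCounts, Subread 1.5.2 and the GRCm38 (mm10) build. Not given in the sources used here are the annotation release and the strand setting.

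Symbols and positions came from GENCODE M21 on GRCm38. Genes were filtered with edgeR 4.0.16 (filterByExpr, minimum count 10, minimum total 15; 15476 of 49315 kept, common biological coefficient of variation 9.62%), scaled by TMM and fitted with a quasi-likelihood model of 4 group means in R 4.3.3. The 8 contrasts were two-sided, each with Benjamini-Hochberg adjustment over all genes at 0.05. The SE of a log2 fold change was its size divided by the root of the F statistic. CPM used scaled library sizes, and RPKM divided CPM by the gene length in the files. Correlations used log2 CPM (a prior count of 2 for genes like Ckb). Alternatives were DESeq2 1.42.0, limma-voom 3.58.1, other scalings, filters and sample subsets.

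The genes and lists were chosen with earlier results of these data known, Ckb among them, so its change is not independent support. All 7 genes are named. Of each list of genes that work beside them, those that passed are named (at most 4 a comparison, by smallest p) and the gene with the highest level, and for each member that passed the 5 genes most like it. Replicate 3 of the control diet postpartum group and replicate 1 of the nonpregnant one were also left out together.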

Additional observations from a re-analysis of the deposited data

How the results depend on the processing

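Ckb kept its direction and its call between the diets after delivery in all 21 alternatives (edgeR, DESeq2 and limma-voom; adjusted p 6.69e-13 to 0.0363) and averaged over states in all 20 (adjusted p 1.2e-08 to 0.0325). Of 990 refitted values of single genes of the system, 946 kept direction and side of the threshold, 4 lost the call, 13 gained one and 27 changed sign, each of these an uncalled value near 0. With no filter on low counts, Slc6a8 (0.31, edgeR adjusted p = 0.00157) and Gatm (-0.76, edgeR adjusted p = 0.00993) passed between the diets after delivery, Ckb (-0.31) and Ckmt2 (0.25) after delivery on the Western diet (edgeR adjusted p = 0.011 each), Gatm (0.83) on the control diet, Ckmt2 (0.18) averaged over diets, and Ckb (-0.55), Slc6a8 (0.38) and Gatm (-1.10) in the interaction; the cause was not tested.

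Members called then numbered 3 between the diets after delivery, 2 and 1 after delivery on the Western and control diets, 3 in the interaction and 1 averaged over diets. Without the pair of libraries it was 2 between the diets after delivery, with DESeq2 1 in the interaction, and in a fit of only the groups compared 0 for Western diet postpartum against control diet nonpregnant; leaving out 1 library gave 1 to 2 and 0 to 1 in the first and last of these. In the order Western against control diet postpartum, the same nonpregnant, postpartum against nonpregnant on the Western and on the control diet, Western postpartum against control nonpregnant, interaction, pregnancy averaged and diet averaged, genes called without a filter were 1048, 454, 933, 744, 1315, 506, 1262 and 1029. With DESeq2 they were 456, 95, 361, 184, 779, 43, 615 and 485, and with 1 library left out 30 to 490, 0 to 18, 0 to 472, 0 to 205, 87 to 764, 0 to 53, 52 to 567 and 83 to 378. Fits of only the groups compared called 71, 0, 47, 6 and 136 genes in the first 5. Without the pair of libraries 15 genes were called between the diets in nonpregnant hearts, 74 after delivery on the control diet and 1 in the interaction; a filter of 1 CPM gave 5 in the first of these and edgeR's robust option 1 in the last.

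Signs changed for Slc6a8 averaged over diets (0.0006073 with DESeq2 size factors, 0.0005974 with DESeq2, -0.067 to 0.040 with 1 library left out) and Ckmt2 averaged over states (-0.052 without the pair, -0.017 to 0.058 with 1 left out). With 1 library left out, they also changed for Ckm (-0.017 to 0.071) after delivery on the control diet and averaged over states (-0.034 to 0.027), Gamt after delivery on the Western diet (-0.066 to 0.014) and averaged over states (-0.0097 to 0.035), Ckmt2 between the diets in nonpregnant hearts (-0.12 to 0.021), Gatm for Western postpartum against control nonpregnant (-0.18 to 0.31) and Ckb averaged over diets (-0.077 to 0.0064). Without length, shares of summed CPM were 50.8% for Ckm, 48.1% for Ckmt2 and 1.06% for Ckb, and with the principal transcript's length Ckm made up 35.9% of summed RPKM. No paired analysis was possible because the labels give each library its own number and the groups share none. Depth limits Ckmt1 (1 to 10 counts), Gatm and Gamt.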
